A study of Mus musculus with 25 samples.

Results

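The genes described here are the 98 named genes that start on mouse chromosome 5 between Lhx5 and a point 5 Mb further distal, out of 18790 named genes on the array. The rule is one of position and uses no measured value, but the window was set with earlier results of these data known, Ddx55 and Vps37b among them. A gene was included when a transcript cluster (the array's probe set for one gene) carried its symbol and no other, and when its reference start in the GRCm38.p6 assembly lay in the window. Lhx5 itself, at chr5:120431886-120441457, was left out. In the window, 117 such clusters were found, 10 genes had several of them and the brightest stood for the gene. The reference lists 168 genes that start in the window, 111 of them protein coding. Of the 98 members 97 were protein coding, and Oas1b is listed as a transcribed pseudogene.

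RNA came from the mammillary neuroepithelium of C57BL/6 mouse embryos at E10.5, measured on 1 array per sample. The 13 mutant arrays, labelled KO, were from embryos of the Lhx5 fl/fl genotype. Per the study's methods this allele carries loxP sites around exons that were not recombined, and it acts as a hypomorph. The 12 WT arrays were from wild-type embryos. Neither group carried a Cre driver that the labels name, and each sample is labelled a biological replicate, with no litter named. The floxed exons were not removed, and the study still detected Lhx5 mRNA in such embryos. It reported an apparent decrease by in situ hybridization at a later stage. By qPCR it reported a trend to lower values that was not significant. The Lhx5 cluster is therefore no check of the labels. Its level was 7.97 ± 0.22 in WT (SD, n = 12), and KO minus WT was -0.04 ± 0.17 (SE, n = 3 and 12; limma adjusted p = 0.960).

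Lhx5 encodes a LIM homeodomain transcription factor of the developing caudal hypothalamus, where the mammillary body forms. The chromosome beyond it is gene dense and holds genes of many kinds, among them RNA helicases, endosome and lysosome genes, the Oas family of antiviral enzymes, calcium channels and exchangers, and regulators of Notch signalling and of the cell cycle. Genes next to a targeted gene travel with it when the mutant line is bred. They therefore keep the DNA of the embryonic stem cells in which the allele was made, over a stretch that shrinks with each backcross.

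The strain of those stem cells and the number of backcrosses are not given in the sources used here. An altered level, sequence differences of linked DNA under the probes, and an effect of the Lhx5 allele itself cannot be told apart in this design, since every mutant carries the allele and its flanks together.

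In the deposited values the mean of KO replicates 1 to 10 equals the mean of KO replicates 11 to 13 in nearly every probe set, with a median difference of 1.33e-06. Over the 98 genes the largest such difference was 3.3e-05. The arrays of KO replicates 1 to 10 therefore bring no mean of their own, and the fit in limma had a term for them beside genotype. With this term the KO minus WT difference is that of KO replicates 11 to 13 against the 12 WT arrays. The residual variance behind its SE, interval and p-value was taken from all 25 arrays, KO replicates 1 to 10 included. An n of 3 and 12 thus names only the arrays that set the difference. Differences are on the log2 scale and, unless said otherwise, p-values are unadjusted and two-sided from this fit. Adjusted p-values (Benjamini-Hochberg) cover all 28940 tested clusters, and a gene was called at an adjusted p below 0.05.

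The promoters of the genes to which the results return are given first. They are RefSeq sequences in GRCm38.p6, 250 bases before to 50 bases after the start site, read 5′ to 3′ on the strand of the gene. Ddx55, the called gene, lies at chr5:124552614-124552913 on the plus strand. Clip1 at chr5:123684312-123684611 (minus strand), Rsrc2 at chr5:123749365-123749664 (minus strand) and Kntc1 at chr5:123749476-123749775 (plus strand) are shown because all 3 of KO replicates 11 to 13 lay below every WT array for each of them. Rita1 at chr5:120612540-120612839 (minus strand) is 1 of 3 genes within 0.18 Mb of Lhx5 that had higher values at an unadjusted p below 0.05, none of them called. Capitals mark CCAAT boxes (CCAAT) and GC boxes (GGGCGG), on either strand, and adjoining matches run together.
Ddx55 promoter: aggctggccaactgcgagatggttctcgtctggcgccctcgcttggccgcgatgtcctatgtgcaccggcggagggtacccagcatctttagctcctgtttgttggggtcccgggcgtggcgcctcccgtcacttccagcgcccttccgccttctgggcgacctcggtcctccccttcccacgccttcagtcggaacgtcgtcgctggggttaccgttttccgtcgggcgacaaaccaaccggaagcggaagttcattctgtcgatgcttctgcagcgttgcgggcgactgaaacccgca
Clip1 promoter: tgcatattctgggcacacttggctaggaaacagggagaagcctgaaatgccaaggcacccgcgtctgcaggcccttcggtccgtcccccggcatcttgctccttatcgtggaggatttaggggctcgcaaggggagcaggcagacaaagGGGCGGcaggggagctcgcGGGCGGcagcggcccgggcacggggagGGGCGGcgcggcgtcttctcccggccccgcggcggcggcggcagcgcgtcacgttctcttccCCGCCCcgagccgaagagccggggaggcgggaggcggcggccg
Rsrc2 promoter: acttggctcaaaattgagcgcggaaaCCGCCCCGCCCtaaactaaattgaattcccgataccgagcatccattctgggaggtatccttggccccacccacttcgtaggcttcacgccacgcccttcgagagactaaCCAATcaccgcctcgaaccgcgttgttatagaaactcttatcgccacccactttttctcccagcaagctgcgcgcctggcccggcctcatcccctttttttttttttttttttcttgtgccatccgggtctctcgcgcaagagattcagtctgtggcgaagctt
Kntc1 promoter: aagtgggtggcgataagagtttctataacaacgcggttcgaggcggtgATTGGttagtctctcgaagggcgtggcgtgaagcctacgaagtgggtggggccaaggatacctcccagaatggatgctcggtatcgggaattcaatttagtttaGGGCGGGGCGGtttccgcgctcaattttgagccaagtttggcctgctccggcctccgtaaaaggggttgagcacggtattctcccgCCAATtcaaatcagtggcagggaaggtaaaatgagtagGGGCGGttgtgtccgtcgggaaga
Rita1 promoter: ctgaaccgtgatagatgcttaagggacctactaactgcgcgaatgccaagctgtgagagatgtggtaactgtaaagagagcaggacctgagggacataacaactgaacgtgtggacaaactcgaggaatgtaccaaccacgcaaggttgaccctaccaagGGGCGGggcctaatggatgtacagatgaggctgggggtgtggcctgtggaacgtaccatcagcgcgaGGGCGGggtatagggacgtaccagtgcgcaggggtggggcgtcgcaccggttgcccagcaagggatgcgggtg
The Ddx55 promoter held none of the motifs searched, which also included the homeodomain core TAATTA and the TATA box TATAAA. Rsrc2 and Kntc1 lie head to head with start sites 312 bases apart, so their windows share 189 bases and the same CCAAT box and GC boxes appear in both. Of the 98 genes 75 had a promoter in the table, 91 sequences in all. A TAATTA was found in 1.1% of these 91, against 5.29% of all 32851 mouse promoters of the same length. A CCAAT box was found in 39.6% against 37.4%, a GC box in 62.6% against 35.7%, and a TATA box in 4.4% against 13.6%. The median number of CpG was 23 in the members' promoters and 7 in all. The 32851 were not limited by gene type or to genes on the array, so they were not matched to the members. These are counts of letters, and no binding was measured here.

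Of the 98 genes, 1 was called, Ddx55, and it was lower in the mutant. The background was 0.0213% of all named genes (4 of 18790). At an unadjusted p below 0.05 there were 13 genes, or 13.3%, against 9.55% of all named genes. Of these 9 were lower (9.18%), against a background of 4.71% for lower genes, and 4 were higher (4.08%), against 4.84%. The share of higher genes was near the background and that of lower genes was above it, and neither share was tested. Ddx55 and Vps37b, whose results were known when the window was set, are among the 9 lower genes. The call and the share of lower genes are thus set in part by that choice. The median difference of the 98 was -0.018, beside -0.003 over all named genes, and 54 differences were negative and 44 positive. The median size of a difference was 0.069, beside 0.078. The differences ran from -0.53 to 0.30, and 0 of 98 passed 1.5-fold.

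The precision was such that the 95% interval of the difference lay within 1.5-fold in both directions for 94 of the 98. The SE of a difference ran from 0.05 to 0.31 with a median of 0.09, and the SD of the 12 WT arrays from 0.05 to 0.38 with a median of 0.13. With genotype as the only term the fit treats KO replicates 1 to 10 as independent of replicates 11 to 13. It then called 20 members (20.4%; 12 lower and 8 higher) against a background of 15.8%, and the difference of each gene stayed as it was.

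**Figure D1:**
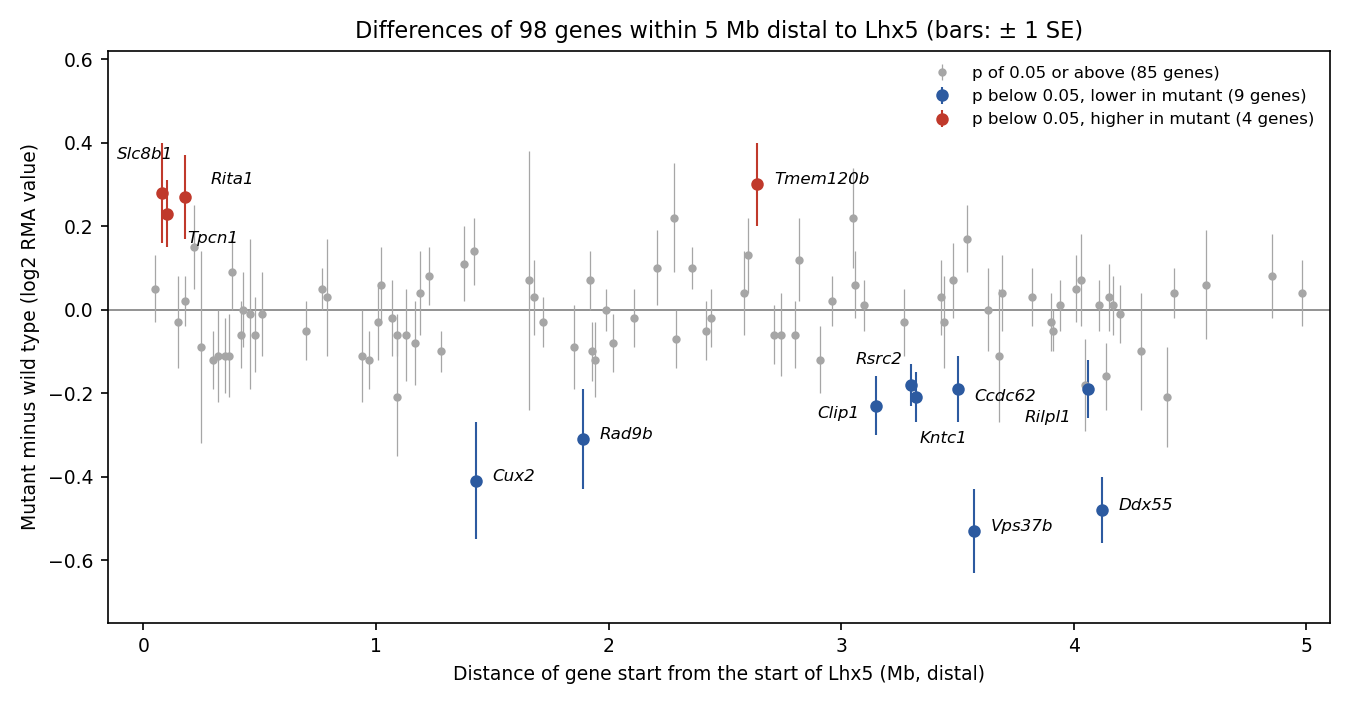
KO minus WT difference (y axis, log2 RMA value) of the 98 genes against the distance of the gene start from the start of Lhx5 (x axis, Mb). Points are fitted differences with bars of 1 SE, and the 13 named genes have an unadjusted p below 0.05: Slc8b1, Tpcn1 and Rita1 lie above 0 within the first 0.18 Mb, while Clip1, Rsrc2, Kntc1, Ccdc62, Vps37b, Rilpl1 and Ddx55 lie below 0 beyond 3 Mb.

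Ddx55 encodes a DEAD-box RNA helicase of ribosome assembly. It starts 4.12 Mb distal to Lhx5, at chr5:124552832-124569660. The values of KO replicates 11, 12 and 13 were 5.79, 5.38 and 5.30, and the WT arrays ran from 5.78 through a median of 5.96 to 6.10. Replicate 11 thus lay at the bottom of the WT range and the other two below it. Ddx55 fell by 0.48 ± 0.08 (SE; n = 3 and 12), or 1.39-fold, with a 95% interval from -0.65 to -0.30 and a limma adjusted p of 0.0285, rank 6 of all clusters by p. The exact permutation test over KO replicates 11 to 13 and WT gave p = 0.0044, where 0.0022 is the smallest that 455 divisions into 3 and 12 arrays allow. KO replicates 1 to 10 ran from 5.33 through 5.47 to 5.64, and all 10 lay below every WT array. Since their mean equals that of replicates 11 to 13 in the deposited values, this is not independent of them.

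The Ddx55 call was lost without KO replicate 12 (adjusted p = 0.107), KO replicate 13 (0.399) or WT replicate 1 (0.0504), and it was kept in the other 22 of 25 leave-one-out fits. The difference ran from -0.63 without KO replicate 11 to -0.38 without KO replicate 13. In the 15 arrays of KO replicates 11 to 13 and WT alone the limma adjusted p was 0.0919, and after a repeated quantile normalization it was 0.0680.

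The genes on either side of Ddx55 were not called. Tmed2, a receptor of cargo in early secretory vesicles, had a difference of 0.01 ± 0.06, and Gtf2h3, a subunit of the transcription factor TFIIH, of 0.03 ± 0.08. Rilpl1, a Rab effector of the cilium, came to -0.19 ± 0.07 (limma p = 0.0147, adjusted p = 0.336). Eif2b1, a subunit of the exchange factor of translation initiation, came to -0.16 ± 0.08 (limma p = 0.0582, adjusted p = 0.5). Eif2b1 and Gtf2h3 share a start region with 17 bases between their start sites.

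The window holds 3 RNA helicases. Ddx54, close to Lhx5 at 0.18 Mb, had 0.02 ± 0.06, and Dhx37, at the far end at 4.98 Mb, had 0.04 ± 0.08. Among DEAD-box helicase genes elsewhere in the genome 22 of 25 listed were measured. Their median difference was -0.043, with 16 negative and 6 positive, and 0 were called (smallest limma adjusted p 0.367). At an unadjusted p below 0.05, 2 were lower, against a background of 4.71% for lower genes. The 2 were Ddx1 (-0.20, limma p = 0.0201) and Ddx5 (-0.14, limma p = 0.0284).

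Vps37b encodes a subunit of ESCRT-I, the complex that sorts ubiquitinated cargo into multivesicular bodies. It lies 3.57 Mb distal, at chr5:124004641-124032260, and had the lowest difference of the 98. KO replicates 11, 12 and 13 gave 6.87, 6.57 and 6.73, whereas WT ran from 7.01 through a median of 7.25 to 7.55. The groups did not overlap. The difference was -0.53 ± 0.10 (SE; n = 3 and 12), or 1.45-fold, with a 95% interval from -0.74 to -0.32. The limma adjusted p was 0.0546, just short of the threshold, and the exact permutation p was 0.0022, the smallest possible. KO replicates 1 to 10 ran from 6.42 through 6.74 to 6.94, again all 10 below every WT array.

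Vps37b passed the threshold in 7 of 25 leave-one-out fits, with limma adjusted p-values from 0.0353 to 0.290 and differences from -0.60 to -0.46. Measured outside the window, 8 of 8 other ESCRT-I genes had differences from -0.10 to 0.11 with a median of -0.068, and 0 had an unadjusted p below 0.05 in limma (smallest 0.117). The neighbours of Vps37b were mixed in sign. Hip1r, an adaptor between clathrin coats and actin, had 0.17 ± 0.08 (limma p = 0.0512), Abcb9, a lysosomal peptide transporter, had 0.00 ± 0.10, and Ccdc62 came to -0.19 ± 0.08 (limma p = 0.0370, adjusted p = 0.444). Ogfod2, beyond Abcb9, had -0.11 ± 0.16.

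**Figure D2:**
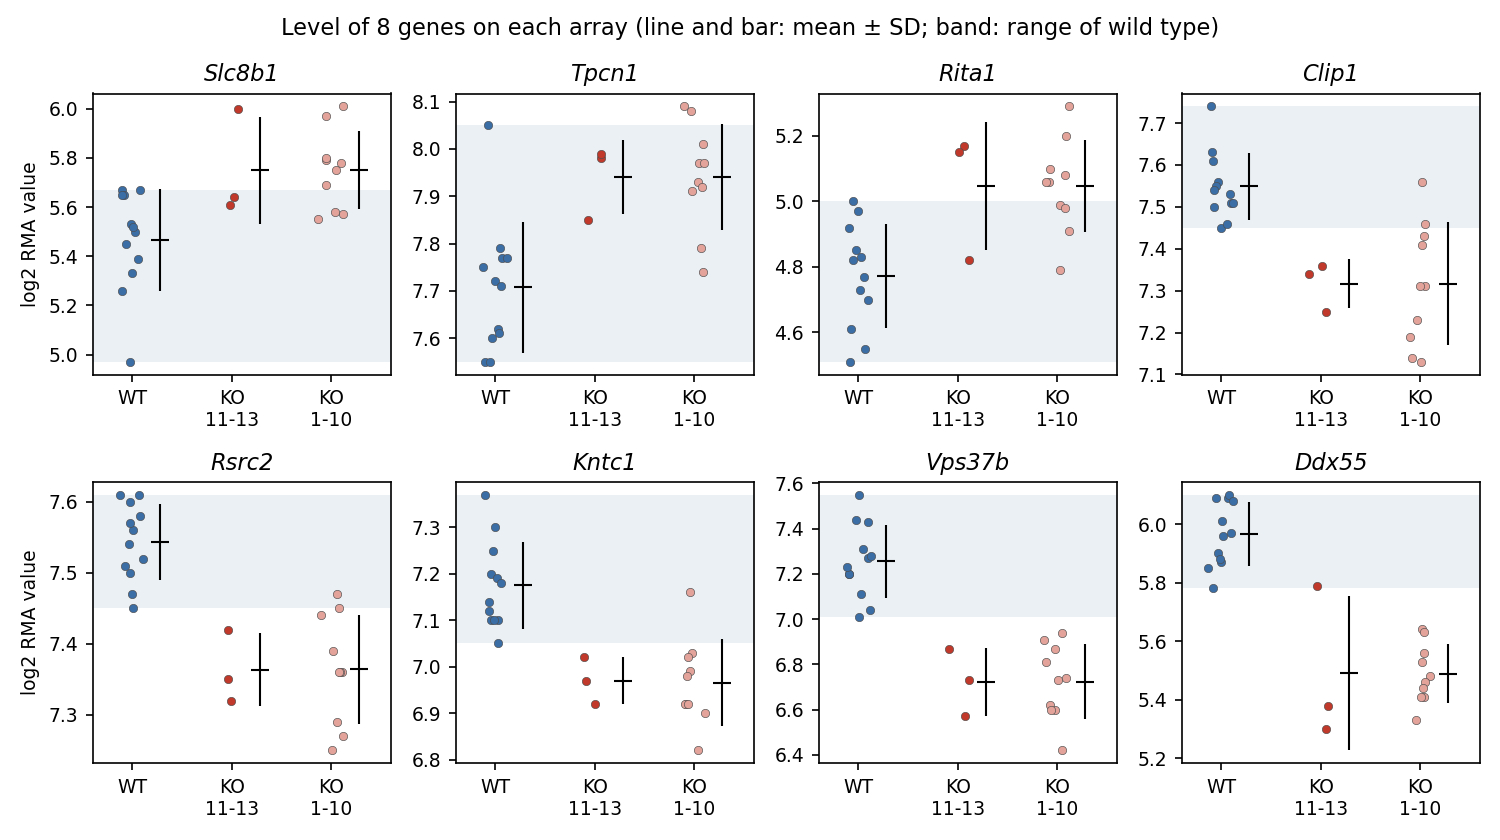
Level on each array (y axes, log2 RMA value, separate for each gene and not starting at 0) of 8 genes in WT (n = 12), KO replicates 11 to 13 (n = 3) and KO replicates 1 to 10 (n = 10). Dots are arrays, lines with bars are means ± SD and the band is the WT range: for Clip1, Rsrc2, Kntc1 and Vps37b all 3 arrays of KO 11 to 13 lie under the band, for Ddx55 2 of 3 do, and for Slc8b1, Tpcn1 and Rita1 at least 1 lies inside it.

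KO replicates 11 to 13 lay outside the range of the 12 WT arrays for 4 of the 98 genes (4.08%), all below it. Over all named genes this was so for 1.25%, and for 0.772% below. Beside Vps37b these were Clip1, Rsrc2 and Kntc1, which lie within 0.45 Mb of chromosome with it. Vps37b was known when the window was set, so the share of 4.08% is set in part by that choice. Across the 5 distance bins of 1 Mb the 4 all fell in the one from 3 to 4 Mb, where they made up 4 of 20 genes.

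Clip1 encodes a linker at the growing ends of microtubules. KO replicates 11, 12 and 13 had 7.36, 7.25 and 7.34, and WT ran from 7.45 through 7.53 to 7.74, so the groups were apart. The difference was -0.23 ± 0.07 (limma p = 0.00424, adjusted p = 0.260; exact permutation p = 0.0022). KO replicates 1 to 10 ran from 7.13 to 7.56 and reached into the WT range.

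Rsrc2, which encodes a coiled-coil protein rich in arginine and serine, had 7.35, 7.42 and 7.32 in KO replicates 11, 12 and 13. WT ran from 7.45 through 7.55 to 7.61, a narrow range, and the difference was -0.18 ± 0.05 (limma p = 0.00159, adjusted p = 0.185; exact permutation p = 0.0022). Kntc1, the kinetochore gene that shares the head-to-head promoter with Rsrc2, had 7.02, 6.97 and 6.92, where WT ran from 7.05 through 7.16 to 7.37. Its difference was -0.21 ± 0.06 (limma p = 0.00300, adjusted p = 0.238; exact permutation p = 0.0044). Neither passed the adjustment, and both differences were smaller in size than that of Vps37b. KO replicates 1 to 10 ran from 7.25 to 7.47 for Rsrc2 and from 6.82 to 7.16 for Kntc1, and reached into the WT range for both.

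Head-to-head pairs with start sites within 1000 bases numbered 8 among the 75 genes with a start site. Rsrc2 and Kntc1 were the only pair with both genes at an unadjusted p below 0.05 in limma, and 4 of the 8 pairs had the same sign. Rita1 and Ddx54, 541 bases apart, had 0.27 ± 0.10 and 0.02 ± 0.06. Rad9b and Vps29, 123 bases apart, had -0.31 ± 0.12 and 0.07 ± 0.07. Some of these signs belong to differences no larger than their SE, such as those of Ddx54 and Vps29. Whether a shared start region goes with a shared direction was not tested.

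From Clip1 to Vps37b, a stretch picked after its values were seen, there are 10 tested genes. Of these 5 had an unadjusted p below 0.05, all lower, where the background was 9.55% in either direction and 4.71% lower. The 2 genes that bound the stretch are among the 5, so this count is set in part by the choice. The median difference was -0.105. Interspersed with them were genes near 0, such as Zcchc8, an RNA surveillance factor (-0.03 ± 0.08), Denr, a translation reinitiation factor (0.07 ± 0.09), and the hydroxycarboxylic acid receptors Hcar2 (0.03 ± 0.09) and Hcar1 (-0.03 ± 0.11). In all 7 differences of the stretch were negative and 3 positive.

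In the first Mb from Lhx5 14 of 23 differences were negative and 9 positive, and the 3 genes at an unadjusted p below 0.05 were all higher. The background was 9.55% of all named genes in either direction and 4.84% for higher genes, and the count was not tested against it. These 3, Slc8b1, Tpcn1 and Rita1, are among the markers of the window, which was set with earlier results known. Their count may thus be set in part by that choice. Slc8b1, a mitochondrial sodium and calcium exchanger 0.08 Mb from Lhx5, had 5.61, 5.64 and 6.00 in KO replicates 11, 12 and 13, against WT values from 4.97 through 5.51 to 5.67. Only replicate 13 exceeded the WT range, and the difference was 0.28 ± 0.12 (limma p = 0.0249, adjusted p = 0.396). Without KO replicate 13 it was 0.16.

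Tpcn1, an endolysosomal cation channel at 0.10 Mb, had 7.98, 7.99 and 7.85, against WT values from 7.55 through 7.71 to 8.05. All 3 lay above every WT array but 1 and inside the range that this array set, and the difference was 0.23 ± 0.08 (limma p = 0.00816, adjusted p = 0.287). Rita1, a tubulin-binding inhibitor of RBPJ in Notch signalling at 0.18 Mb, had 5.17, 5.15 and 4.82, against 4.51 through 4.8 to 5.0. Replicates 11 and 12 exceeded WT, replicate 13 did not, and the difference was 0.27 ± 0.10 (limma p = 0.00987, adjusted p = 0.306). None of the 3 was called in any of the 25 leave-one-out fits.

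Of the other genes among the nearest 10, 0 had an unadjusted p below 0.05 in limma. Plbd2, a lysosomal phospholipase-like protein and the nearest gene at 0.05 Mb, had 0.05 ± 0.08, and Iqcd, a gene of cilia, had -0.03 ± 0.11. Rasal1, a Ras GTPase-activating protein, had 0.15 ± 0.10 (limma p = 0.157), and the antiviral genes Oas2 and Oas3 had -0.12 ± 0.07 (limma p = 0.118) and -0.11 ± 0.11 (limma p = 0.329). Dtx1, a ubiquitin ligase that regulates Notch, had -0.09 ± 0.23 with values of 5.94, 5.43 and 5.19 in KO replicates 11, 12 and 13 over a WT range from 5.13 to 6.31. It had the widest WT spread of all 98.

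Between these ends of the window 3 more genes had an unadjusted p below 0.05. Cux2, a homeodomain transcription factor at 1.43 Mb, had 6.16, 5.81 and 5.72 in KO replicates 11, 12 and 13, against WT values from 5.99 through 6.27 to 6.77. Replicates 12 and 13 were below WT and replicate 11 was within it, and the difference was -0.41 ± 0.14 (limma p = 0.00684, adjusted p = 0.274). Rad9b, a paralog of the checkpoint clamp gene Rad9a, had 5.65, 5.42 and 5.08 over a WT range from 5.32 to 6.03, and its difference of -0.31 ± 0.12 (limma p = 0.0193, adjusted p = 0.363) was -0.16 without KO replicate 13. Tmem120b, a nuclear envelope protein at 2.64 Mb, had 6.85, 6.82 and 6.49 over a WT range from 6.22 to 6.67. At 0.30 ± 0.10 (limma p = 0.00409, adjusted p = 0.256) it had the highest difference of the 98. In all 3 genes the groups overlapped through 1 or more KO arrays.

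**Figure D3:**
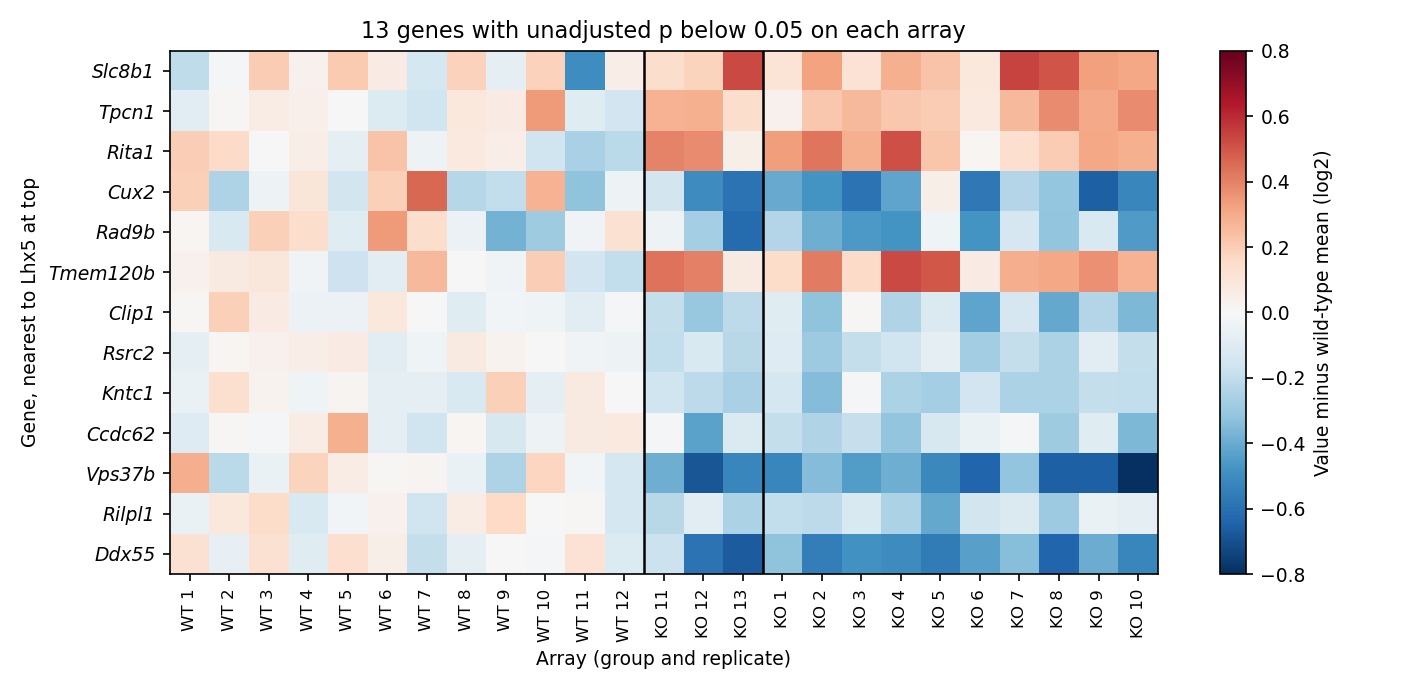
Value minus the WT mean (colour, log2) of the 13 genes with an unadjusted p below 0.05, in rows ordered by distance from Lhx5, on each of the 25 arrays in columns, with black lines between WT, KO replicates 11 to 13 and KO replicates 1 to 10. Every row but those of Cux2 (0.049 on KO replicate 5) and Clip1 (0.009 on KO replicate 3) keeps the same sign on all 13 KO arrays. The 2 KO blocks have the same mean in the deposited values.

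Counts of genes with an unadjusted p below 0.05 did not order by distance. They were 3 of 23 genes in the first Mb, all higher. From 1 to 2 Mb there were 2 of 22, both lower, and from 2 to 3 Mb 1 of 17, higher. From 3 to 4 Mb there were 5 of 20 (25%), all lower, and from 4 to 5 Mb 2 of 16, both lower. Over all named genes the share was 9.55% in either direction, 4.71% for lower and 4.84% for higher genes. No bin was tested against these shares. Vps37b, in the bin from 3 to 4 Mb, and Ddx55, in that from 4 to 5 Mb, were known when the window was set. The counts of both bins are thus set in part by that choice. The medians of the bins were -0.014, -0.029, -0.021, -0.011 and 0.009. The bin with the largest count thus had a median as close to 0 as the others.

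**Figure D4:**
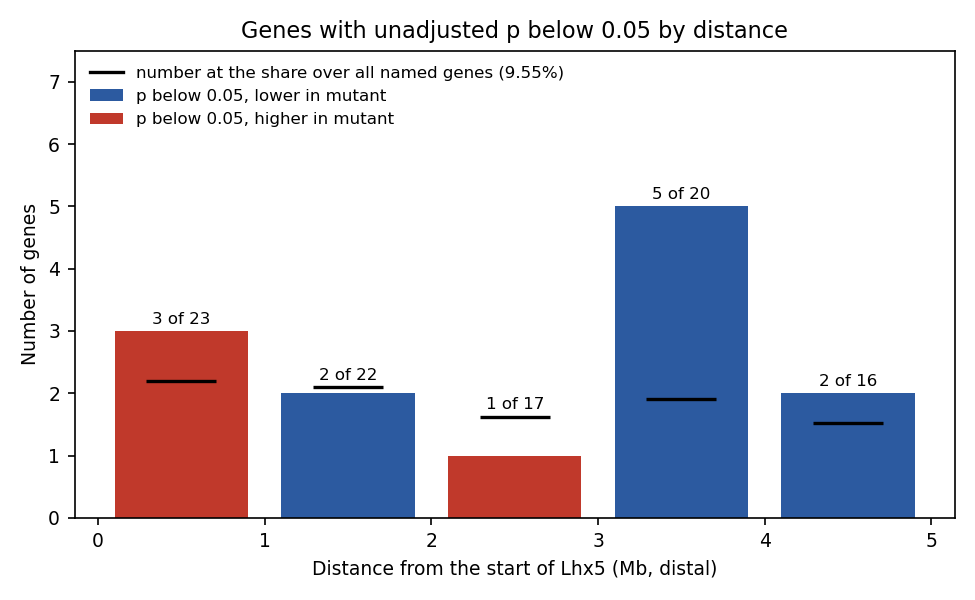
Number of genes with an unadjusted p below 0.05 (y axis) in each 1 Mb bin of distance from Lhx5 (x axis, Mb), lower in the mutant in blue and higher in red. Black lines give the number at the share over all named genes (9.55%); the bin from 3 to 4 Mb, with 5 of 20, stands farthest above its line.

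On the other side of Lhx5, the proximal 5 Mb held 31 named genes, of which 0 were called by limma and 2 (6.45%) had an unadjusted p below 0.05. These were Tbx3, a T-box factor of the hypothalamus (-1.10 ± 0.41, limma p = 0.0137), and Rnft2 (-0.31 ± 0.12, limma p = 0.0141). Over the remaining 948 named genes of chromosome 5 limma called 0, 105 (11.1%) had an unadjusted p below 0.05, and 23 (2.43%) had KO replicates 11 to 13 outside the WT range. The medians were -0.012 on the proximal side and -0.008 over the rest of the chromosome. Shares on the 2 sides were not tested against each other.

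The members were also grouped by function, with 9.55% of all named genes at an unadjusted p below 0.05 as the background of each count. Ddx55 was the only gene of these groups to pass the adjustment. Of 8 cell cycle genes, 3 had an unadjusted p below 0.05 with negative differences (Clip1, Kntc1 and Rad9b), and the median was -0.042. The subunits Anapc5 and Anapc7 of the anaphase-promoting complex had 0.10 ± 0.05 and -0.00 ± 0.05. Anapc5 had 4 dimmer clusters, with differences from 0.10 to 0.19, of which 2 had an unadjusted p below 0.05 in limma (0.16 ± 0.07, p = 0.0198, and 0.19 ± 0.07, p = 0.0158). The phosphatase gene Ppp1cc had -0.03 ± 0.06. Of 11 endosome and lysosome genes, 3 had an unadjusted p below 0.05, Vps37b and Rilpl1 with negative and Tpcn1 with positive differences. The median was 0.007. Vps33a and Vps29, subunits of the HOPS and retromer complexes, had 0.01 ± 0.06 and 0.07 ± 0.07, and the proton pump subunit Atp6v0a2 had -0.01 ± 0.07.

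Of 9 measured translation and RNA genes, of 10 listed, 7 differences were negative and 2 positive. Rsrc2 had an unadjusted p below 0.05, and the median of -0.118 was the lowest of the groups. Beside Eif2b1 it rested on Snrnp35, a gene of the minor spliceosome (-0.18 ± 0.11), Naa25, a subunit of an acetyltransferase (-0.12 ± 0.07), and Atxn2, an RNA-binding protein (-0.10 ± 0.05), and none of these was called. The 7 measured calcium genes, of 8 listed, had a median of 0.096, with Slc8b1 and Tpcn1 at an unadjusted p below 0.05. The purinergic receptor channel P2rx4 had 0.22 ± 0.13 and the store-operated channel Orai1 had 0.04 ± 0.10, while the calcium pump Atp2a2 had -0.08 ± 0.07. Groups of this size hold few genes and were not tested as groups.

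The 9 measured Oas genes, of 10 listed, lie between 0.30 and 0.48 Mb from Lhx5. Each was dim, with WT means from 2.69 to 3.34, and differences ran from -0.12 to 0.09 with 0 at an unadjusted p below 0.05 in limma. They are close paralogs, and probes may not tell them apart fully. The 5 measured chromatin genes had a median of -0.021 and differences from -0.12 (Bcl7a, of the BAF complex) to 0.05 (Kmt5a, a histone methyltransferase). The 5 measured mitochondrial genes, of 6 listed, had a median of -0.064, and Slc8b1 was the only 1 of them at an unadjusted p below 0.05. Rilpl1 was counted with the endosome and lysosome genes and not with the cilium genes. By their brightest clusters, of the 5 measured genes listed as cilium genes and 6 measured signalling genes 0 had an unadjusted p below 0.05 in limma. Of 4 dimmer clusters of the axonemal dynein gene Dnah10, 1 did (0.16 ± 0.06, p = 0.0162), while its brightest had -0.10 ± 0.14. Among the signalling genes, Ptpn11, the phosphatase of the Ras pathway, had -0.05 ± 0.07, and Sh2b3, an adaptor of cytokine signalling, had 0.11 ± 0.09.

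The 5 members with the brightest WT means differed little. Cdk2ap1, a cell cycle regulator, had -0.05 ± 0.05, the ribosomal protein gene Rpl6 had 0.05 ± 0.05, Ppp1cc had -0.03 ± 0.06, Zfp664, a zinc finger gene, had 0.04 ± 0.06, and Tmed2 had 0.01 ± 0.06. For 3 members, Rpl6, Cdk2ap1 and Tmed2, the clusters with neighbouring identifiers belong to another chromosome, and whether the brightest cluster measures this copy of the gene was not tested. Other clusters of these genes gave 0.04, -0.06 and 0.00. Myl2, a myosin light chain of heart muscle, was at 5.48 on KO replicate 1 and at most 3.36 on the other KO arrays, with 3.01 to 3.29 in WT.

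Markers fixed for the tissue were present, with WT means from 6.35 to 10.15 for the 8 genes of the caudal hypothalamus. Their mean level ran from 7.42 to 7.94 over WT and from 7.21 to 7.54 over KO replicates 11 to 13. Of the 8, 2 (Rax and Otp) were lower at an unadjusted p below 0.05 in limma, against a background of 4.71% for lower genes. The 6 mesenchyme markers ran from 7.44 to 8.30 in WT and from 7.86 to 8.41 in KO replicates 11 to 13, and 6 endothelial markers from 6.59 to 7.44 and from 7.26 to 7.64. The 4 measured erythroid markers ran from 10.43 to 11.49 and from 10.87 to 11.23, and the 4 measured neuron markers from 7.38 to 8.99 and from 8.05 to 8.36. Differences were positive for 6 of 6 endothelial markers (median 0.124), 6 of 6 mesenchyme markers (0.136) and 4 of 4 erythroid markers (0.201), and negative for 4 of 4 neuron markers (-0.142). In limma 0 of these 20 genes had an unadjusted p below 0.05, against a background of 9.55% of all named genes. The smallest limma p was 0.051, for the endothelial marker Cdh5, with a difference of 0.29 ± 0.14 (SE). The mean levels of KO replicates 11 to 13 lay inside the WT range for the erythroid and neuron lists. For the endothelial and mesenchyme lists they overlapped it and reached above it. A shift of these lists was not tested, nor was their part in the differences of the 98 genes. In such bulk tissue fewer cells of a type and less RNA per cell cannot be told apart.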

How the data were processed

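The 25 samples were measured on the Mouse Gene 1.1 ST array of Affymetrix. Values were deposited on the log2 scale after robust multiarray averaging by the authors, with Affymetrix Expression Console 1.0, affy and R 2.7.0 in the submitters' processing notes; no batch adjustment is given in the sources used here. Because 14 cells above 14 were misprints, the deposited columns that hold them were handled as a log2-like score with those cells set missing. No member had such a cell. Array medians ran from 4.64 to 4.76, and the number of arrays limits the precision. Of 35556 probe sets, 6616 with identifiers below the lowest one in the annotation were left out. The 28940 clusters that remained, 5841 of them without a symbol, were fitted in limma 3.58.1 (R 4.3.3). Symbols of single-gene clusters were matched to GRCm38.p6 by Entrez number (99.8%).

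The members and gene lists were chosen with earlier results of these data known. Genes named were Lhx5, the 5 markers of the window (Ddx55, Vps37b, Rita1, Tpcn1 and Slc8b1), members called or at an unadjusted p below 0.05, the 10 nearest, those apart from WT, the 2 neighbours on either side of Ddx55 and Vps37b, the 5 brightest and list members; Myl2, Hcar1, Hcar2 and Rnft2 were named after their values were seen. For single genes an exact permutation test (two-sided) was run over KO replicates 11 to 13 and WT. The fits were tested on simulated data. Alternatives were genotype alone, the shared arrays alone, a replicate block, repeated quantile normalization, median centring, a filter on dim clusters, array weights, limma-trend, the mean over clusters, other windows and leaving out each array. Plots were made in matplotlib 3.10.9 (Python 3.11.15).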

Additional observations from a re-analysis of the deposited data

How the results depend on the processing

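The count of called members was 1. It became 20 with genotype as the only term, 2 with centred arrays, with array weights and with the mean over all clusters of a gene, and 0 with KO replicates 11 to 13 and WT alone, with a repeated quantile normalization and in a window of 2.5 Mb. Leaving out each array in turn gave 0 to 2. The second call was Vps37b, with adjusted p-values of 0.0485, 0.0211 and 0.0493 in those 3 settings. Genes at an unadjusted p below 0.05 numbered 31 with genotype alone and 5 in the window of 2.5 Mb, against 13, and 11 to 16 with an array left out. The median difference of -0.018 ran from -0.027 to 0.013 over the other settings and from -0.025 to 0.005 with an array left out, so its sign is not settled. Replicate numbers did not pair the samples: over 12 numbers the correlations of deviations ran from -0.335 to 0.428, 4 were above 0.1, and 0 KO and 1 WT arrays were closest to their own number. With the replicate block 0 members were called, 13 had an unadjusted p below 0.05, the median was 0.013 and Ddx55 had an adjusted p of 0.417. Using clusters with identifiers of chromosome 5, added after seeing the data, left 1 call. The smallest exact p adjusted over all clusters was 0.307, so that test could not call a gene. With 3 arrays carrying the difference, a member that was not called is not shown to be unchanged.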
